A study of Mus musculus with 24 samples.

Results

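The genes described here encode the nuclear subunits of the mitochondrial respiratory chain (complexes I to IV and cytochrome c) and of ATP synthase, with the assembly factors of complex I. A gene was taken when a probe was annotated with that gene alone and its symbol began with Nduf, Uqcr, Atp5 or Cox4 to Cox8, or was Sdha, Sdhb, Sdhc, Sdhd, Cyc1 or Cycs. This gave 68 genes on 75 probes, of 8973 named genes and 17440 features measured. The mouse RefSeq table holds 98 protein-coding genes of that naming. The arrays covered 26 of 39 complex I subunit genes, 6 of 8 complex I assembly factors, 4 of 4 complex II genes, 5 of 9 complex III genes, Cycs, 12 of 20 complex IV genes and 14 of 17 ATP synthase genes.

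Cells were taken from mouse embryoid bodies, aggregates in which embryonic stem cells differentiate, and separated by Flk1, the VEGF receptor encoded by Kdr. Flk1+ and Flk1- cells of 84 h, 95 h and 8 d of differentiation made 6 groups of 4 arrays, 24 arrays in all, of an Agilent mouse development design. The labels name no cell line, allele or added agent for any group, and embryoid bodies hold many cell types. The series addresses, by its title, Wnt signaling in the commitment of stem cells to endothelium. Sample RNA (Qiagen RNeasy, Cy5) was compared on each array with one common reference (Cy3), RNA of homogenised mouse pups isolated with GITC, with amplification and with no exchange of dyes. The labels number the arrays of a group 1 to 4 without naming separate cultures, so the p-values cover only how far these arrays differed from each other, which may be technical variation. Every value below is a log2 ratio of sample over reference with the array median set to 0, and a difference is on the same scale. The log base and direction are not given in the sources used here. Base 2 was assumed, and sample over reference was taken from the dyes. In that direction the genes of newborn tissues (Alb, Krt10 and others) lay below 0 for 7 or 8 of 8 measured in every group. Because each probe is set against pup RNA, levels cannot be compared between genes.

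Complexes I, III and IV pass electrons from NADH to oxygen and pump protons across the inner mitochondrial membrane, complex II feeds in electrons from succinate, and ATP synthase uses the proton gradient to make ATP. Cytochrome c carries electrons from complex III to complex IV and also triggers caspases when released into the cytosol. Pluripotent stem cells rely strongly on glycolysis, and respiration usually gains weight as cells differentiate. Several complex IV subunits exist as a general form and a form of heart and skeletal muscle.

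Many genes of the chain share promoter elements of the factors NRF-1 and GABP (an ETS factor). Promoters of members that changed are therefore shown first. In the RefSeq table (GRCm38.p6), 56 of the 68 members had a window of 300 bases, 250 before the start and 50 from it on. The NRF-1 letters GCGCNTGCG, searched on both strands, occurred in 20 of the 56 (35.7%) and in 7.12% of the windows of all 27025 genes. The ETS letters CCGGAAG, on both strands, occurred in 16 (28.6%) against 9.93%, and neither motif contains the other. At least 1 of them lay in 30 windows (53.6%) against 15.6% of all genes. The next 4 sequences are the 130 bases before the start of 4 members that changed between 95 h and 8 d, 5′ to 3′ on the gene's strand, shown because 2 of them rose and 2 fell. Capitals mark the motif matches, NRF-1 in the first 3 and ETS in the last.
Cycs (chr6:50566570-50566699, - strand): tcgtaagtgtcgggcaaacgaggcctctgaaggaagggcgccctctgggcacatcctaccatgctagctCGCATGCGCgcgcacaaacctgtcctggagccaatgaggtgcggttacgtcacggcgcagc
Ndufaf4 (chr4:24897953-24898082, + strand): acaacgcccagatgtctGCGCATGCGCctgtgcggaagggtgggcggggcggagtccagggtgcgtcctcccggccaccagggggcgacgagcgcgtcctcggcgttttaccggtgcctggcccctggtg
Atp5k (chr5:108434400-108434529, - strand): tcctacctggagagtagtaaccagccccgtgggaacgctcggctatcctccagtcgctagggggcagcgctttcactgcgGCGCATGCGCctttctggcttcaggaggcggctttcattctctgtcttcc
Uqcrh (chr4:116075071-116075200, - strand): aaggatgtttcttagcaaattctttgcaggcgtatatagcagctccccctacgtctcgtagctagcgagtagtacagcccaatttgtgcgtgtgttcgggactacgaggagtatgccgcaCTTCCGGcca
In Ndufaf4 and Atp5k the marked stretch is a palindrome that reads as NRF-1 on both strands, 1 base apart. Cycs and Ndufaf4 fell and Atp5k rose with the same letters in their windows, as given below. Of the 19 members that changed between 95 h and 8 d in either sort, 17 had a window, and 6 of these held the NRF-1 letters (Atp5k, Atp5o, Cycs, Ndufaf4, Sdha and Uqcrc1) and 3 the ETS letters (Atp5j, Atp5k and Uqcrh). A match describes these letters only and is not a binding site or a cause.

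Relative to pup RNA, the values of the respiratory chain were low in all 6 groups. The mean over the 24 arrays was below 0 for 62 of 68 members, against 48.1% of all features, and 39 members lay below 0 on every array. Ndufaf2, Ndufa6 and Ndufa7 were the only 3 members above 0 on every array. The members' median was between -0.63 and -0.43 on 22 arrays and was -0.96 and -1.01 on the other 2, Flk1+ 84 h arrays 2 and 4. Fewer cells of a type and less RNA per cell cannot be told apart in such bulk RNA. Sample and pup RNA differed in dye and isolation in the same way on every array. A fixed offset from these and a difference in RNA level cannot be told apart either.

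**Figure D1:**
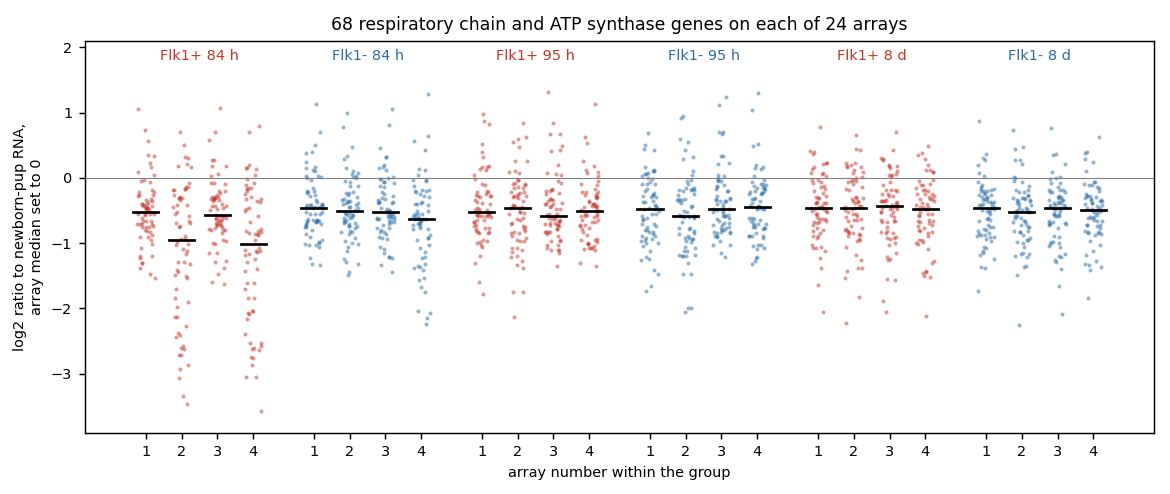
Log2 ratio to pup RNA (vertical axis) of the 68 members, 1 point per gene, on each of the 24 arrays grouped by sort and time, with a bar at the median of the members. The medians of Flk1+ 84 h arrays 2 and 4, -0.96 and -1.01, lie below those of all other arrays, and their points reach the lowest values.

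Those 2 arrays stood apart over all features, with SDs of 0.973 and 0.970 against 0.683 to 0.835 on the other 84 h arrays, 0.694 to 0.771 at 95 h and 0.547 to 0.618 at 8 d. Flk1- 84 h array 4 deviated the same way to a lesser degree: 4 members were below -2 on it, 16 and 18 on the 2 Flk1+ arrays, and 0 or 1 on each remaining array. These 3 arrays were picked with results of these data known, so the counts of called members are given with and without them. Kdr, the gene of the sort, read 1.81, 0.03, 1.43 and 0.67 on Flk1+ 84 h arrays 1 to 4 and -1.08 to -0.74 on the Flk1- arrays. It was thus higher on every Flk1+ array of 84 h, least on array 2.

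The difference between arrays 2 and 4 and arrays 1 and 3 of the Flk1+ 84 h group shows which members carried it. It was below -1 for 23 of 68 members (33.8%, against 8.84% of all features) and above 0 for 20 (29.4%, against 58.3%). It was lowest for accessory subunits of complex I, Ndufa12 (-2.89), Ndufs6 (-2.41) and Ndufs4 (-2.31), which act late in building the NADH-oxidising module. Cycs (-2.23), Cox4i1 (-1.97), a general subunit of complex IV, and Sdhd (-1.92), a membrane anchor of complex II, followed. It was highest for Cox7a2 (0.66), Sdhc (0.63), Ndufa7 (0.57), Ndufv1 (0.51) and Cyc1 (0.48). By role, the median was -0.91 for complex I subunits, -0.96 for their assembly factors, -0.90 for complex II, -0.56 for ATP synthase, -0.04 for complex IV and 0.19 for complex III. Values of partners of one complex therefore went opposite ways: Sdhd was among the lowest and Sdhc among the highest, although both are anchors of complex II. Each of these was read by 1 probe, so a difference between genes and one between probes cannot be told apart. The 55 mitochondrial ribosomal protein genes had a median of -0.46 and the 52 cytosolic ones of -0.38, against 0.10 for all features. These are values of single arrays of 1 group, with no test.

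**Figure D2:**
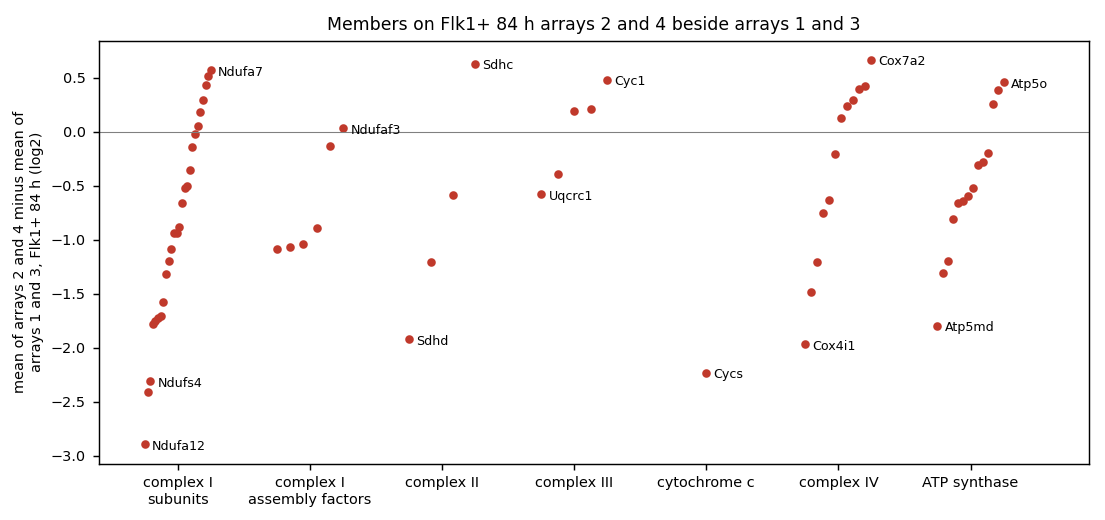
Mean of arrays 2 and 4 minus mean of arrays 1 and 3 of the Flk1+ 84 h group (log2, vertical axis) for each of the 68 members by role, 1 point per gene. Points run from -2.89 (Ndufa12) to 0.66 (Cox7a2), with most complex I subunits below 0 and complex III and IV members on both sides.

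For 7 members a pair of probes read the same gene, and for 5 of these the probes differed on arrays 2 and 4. One probe of Atp5b, the catalytic beta subunit of ATP synthase, changed by -2.18 between the array pairs and the other by -0.21. The probes of Atp5a1, its alpha subunit, changed by -1.60 and 0.42, those of Atp5g1 by -1.46 and -0.16, those of Atp5pb by -2.50 and -0.11, and those of Sdhb by -1.30 and 0.12. The probes of Cox5a (-1.22 and -1.20) and of Ndufaf4 (-0.83 and -1.24) moved together. For those 5 genes the averaged values at 84 h join probes that disagree, and where each probe lies along its transcript was not analysed here.

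**Figure D3:**
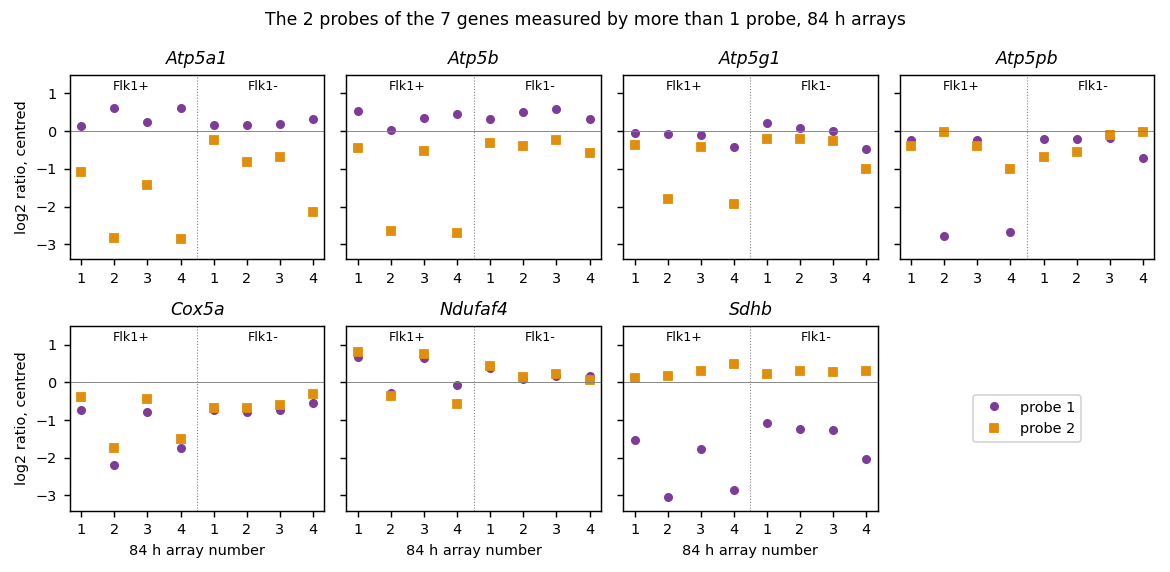
Log2 ratio, centred (vertical axis), of both probes of the 7 members that had a pair of probes, on Flk1+ (left) and Flk1- (right) arrays 1 to 4 of 84 h. One probe of Atp5a1, Atp5b, Atp5g1, Atp5pb and Sdhb drops by more than the other on Flk1+ arrays 2 and 4, and both probes of Cox5a and Ndufaf4 drop.

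At 84 h the question was whether Flk1+ cells, which include the first mesoderm able to form blood and vessels, differed from Flk1- cells in these genes. With all arrays, 13 members were lower in Flk1+ cells (8.12% of all features were) and 1 was higher (5.36%), by limma with Benjamini-Hochberg adjustment over all features. The median difference was -0.38, against 0.00 for all features. Without the 3 arrays 3 members were lower (4.79%), 0 were higher (1.92%), and the median was -0.04. In that fit 8 members had an unadjusted p under 0.05, as did 3517 of all 17440 features. With quantile normalization 4 were lower (4.07%) and 4 higher (3.81%), with a median of -0.10. Single arrays moved the count of lower members: it was 3 and 2 without Flk1+ array 2 or 4, 33 and 30 without Flk1+ array 1 or 3, and 3 without any one of Flk1- arrays 1 to 3. The higher count ranged from 0 to 3 when 1 array was left out.

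The 3 members that were lower both with and without those arrays were Ndufaf6, Ndufaf3 and Ndufs4. Ndufaf6, an assembly factor needed for the first modules of complex I, read 0.56, 0.17, 0.58 and 0.70 in Flk1+ cells and 1.14, 0.99, 1.05 and 1.28 in Flk1- cells. All Flk1+ arrays were below all Flk1- arrays, and the difference was -0.61 ± 0.13 (SE, adjusted p = 0.00342), or -0.49 without the 3 arrays (adjusted p = 0.039, limma). Ndufaf3, which works early in the same assembly, read -0.34, -0.31, -0.32 and -0.29 in Flk1+ cells and 0.04, 0.08, 0.13 and 0.05 in Flk1- cells. The groups did not overlap and the Flk1+ arrays lay close together. Its difference was -0.39 ± 0.09 (adjusted p = 0.00939, limma) and -0.41 without the 3 arrays (adjusted p = 0.0402, limma). With only the 84 h arrays fitted neither Ndufaf6 (adjusted p = 0.0654) nor Ndufaf3 (0.0579, limma) was called.

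Ndufs4, an accessory subunit of the NADH-oxidising arm that is mutated in Leigh syndrome, read -0.65, -2.86, -0.65 and -3.05 in Flk1+ cells and 0.24, -0.13, -0.07 and -1.14 in Flk1- cells. The Flk1- array 4 lay below Flk1+ arrays 1 and 3, so the groups overlapped. The difference was -1.53 ± 0.41 (adjusted p = 0.0201), and -0.67 without the 3 arrays (adjusted p = 0.0365, limma). Its size thus depended on the 3 arrays. Its call was lost with only the 84 h arrays fitted, and without Flk1+ array 2 or 4 or any one of Flk1- arrays 1 to 3.

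The other members called lower at 84 h were the complex I subunits Ndufs6 (-1.36), Ndufb9 (-1.06), Ndufv3 (-0.80), Ndufb10 (-0.57) and Ndufa2 (-0.56), Sdhb of complex II (-0.45), Cox4i1 (-1.04) and Cox6c (-0.55) of complex IV, and Atp5b (-0.65) and Atp5j (-0.39) of ATP synthase. Atp5k, a small membrane subunit of ATP synthase, was higher (0.33). Without the 3 arrays their adjusted p lay between 0.185 for Ndufs6 and 0.759 for Atp5b (limma), and their differences shrank to between -0.33 and -0.11 for those lower and to 0.22 for Atp5k. Ndufs6 read -0.28 and -0.22 on Flk1+ arrays 1 and 3 but -2.72 and -2.62 on arrays 2 and 4, against 0.16, 0.15, -0.08 and -0.63 in Flk1- cells. The low values thus came from the same arrays as for Ndufs4. Sdhb and Atp5b each average a pair of probes that disagreed. For Sdhb, 1 probe read 0.11, 0.18, 0.31 and 0.49 in Flk1+ cells and 0.23, 0.31, 0.28 and 0.30 in Flk1- cells. The other read -1.53, -3.05, -1.77 and -2.85 against -1.08, -1.23, -1.27 and -2.04. For Atp5b, 1 probe read 0.54, 0.03, 0.34 and 0.44 against 0.32, 0.50, 0.58 and 0.32. The other read -0.45, -2.65, -0.54 and -2.70 against -0.31, -0.385, -0.23 and -0.57.

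Cycs was at -0.40, -2.92, -0.66 and -2.60 in Flk1+ cells of 84 h and at -0.63, -0.74, -0.94 and -2.24 in Flk1- cells. The 3 lowest values were on the 3 arrays that stood apart, and the sorts differed by -0.51 with all arrays (adjusted p = 0.412, limma) and by 0.24 without them (adjusted p = 0.523, limma).

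At 95 h and 8 d no member was called between the sorts by limma, of 1.35% and 0.224% of all features called lower and 0.654% and 0.149% called higher. At each of these times 2 members had an unadjusted p under 0.05, as did 1820 and 833 of all 17440 features. Without the 3 arrays these became 6 and 8 members (2779 and 1466 of all features), and again no member was called. At 95 h the differences ran from -0.41 (Cox7a2) to 0.34 (Cycs), 64 of 68 within 0.25 of 0, and the smallest adjusted p was 0.397 (Uqcrc2, limma). At 8 d they ran from -0.43 (Cox5a) to 0.45 (Cox7a2l), 60 within 0.25, with a smallest adjusted p of 0.72 (Ndufc1, limma). The 95% interval of a difference reached 0.34 to each side in the median over members. It was narrower or wider by gene, with standard errors of 0.08 for Cox5b and 0.48 for Ndufa12. Differences within a gene's own interval could not be told from 0. Kdr differed between the sorts by 2.93 at 95 h and 1.89 at 8 d (adjusted p = 1.08e-07 and 0.000171, limma).

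The 8 d result depended on how arrays were weighted. With array weights 8 members were called higher in Flk1+ cells of 8 d and 3 lower, where 1328 and 1009 of all 17440 features were. With only the 8 d arrays fitted 2 members were called higher and 1 lower, where 558 and 391 of all features were. Atp5j, the coupling factor 6 of ATP synthase, read 0.06, 0.02, 0.05 and -0.03 in Flk1+ cells and -0.17, -0.27, -0.14 and -0.25 in Flk1- cells. Every Flk1+ array lay above every Flk1- array, with adjusted p of 0.00065 with array weights and 0.0279 with the 8 d arrays alone (limma). Cox5a, a nuclear-encoded subunit of complex IV, read -1.23, -1.53, -1.25 and -1.50 in Flk1+ cells and -0.89, -1.16, -0.90 and -0.85 in Flk1- cells. Its groups did not overlap either, and it was called lower in both of these fits (adjusted p = 0.00249 and 0.0417, limma).

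The change of the sort difference itself was tested as an interaction. Between 84 h and 95 h it was called for 0 members by limma (0.00573% of all features), with 18 at an unadjusted p under 0.05. Between 95 h and 8 d it was called for 0 (0.539%), with 2 at such a p. Of all 17440 features, 2689 and 1329 had an unadjusted p under 0.05 in these 2 tests. The calls were 0 in both without the 3 arrays, with 5 and 9 members at an unadjusted p under 0.05 (1843 and 2221 of all features). The median for the first moved from 0.31 to 0.06. It is therefore not shown that the sorts differed more in these genes at 84 h than at 95 h.

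The comparisons of 95 h with 84 h share their arrays with those above and with those of 8 d that follow. In Flk1+ cells 21 members were called higher at 95 h (11.2% of all features) and 5 lower (8.54%), with a median of 0.35 against 0.00 for all features. Without the 3 arrays 0 members were called in either direction (3.95% and 1.49% of all features), and the median was 0.05. In that fit 14 members had an unadjusted p under 0.05, as did 3825 of all 17440 features. With quantile normalization 7 were higher (4.75%) and 5 lower (4.31%). The count of higher members was 35 and 33 without Flk1+ 84 h array 1 or 3 and 8 and 6 without array 2 or 4, and that of lower members was 1 and 2 without 84 h array 2 or 4 and 3 without 95 h array 2 or 4. The largest differences with all arrays were those of Ndufa12 (1.52), Ndufs4 (1.43), Sdhd (1.42), Cox4i1 (1.27), Ndufs8 (1.21), an iron-sulfur subunit of complex I, and Ndufb9 (1.08). Without the 3 arrays they were 0.08, 0.28, 0.46, 0.29, 0.35 and 0.19.

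The 5 members called lower at 95 h in Flk1+ cells were Atp5k (-0.43), Atp5o (-0.40), Cox6a1 (-0.35), Cox6a2 (-0.32) and Ndufb8 (-0.28). Sdhd read -1.47, -3.35, -1.60 and -3.57 at 84 h and -1.31, -0.84, -1.10 and -1.04 at 95 h. The 84 h arrays all lay below the 95 h arrays, arrays 1 and 3 by little and arrays 2 and 4 by more than 2. The change of 1.42 ± 0.35 (adjusted p = 0.0111, limma) was 0.46 without the 3 arrays (adjusted p = 0.202, limma).

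In Flk1- cells 1 member was called higher at 95 h than at 84 h (1.06% of all features) and 0 lower (0.608%). The median was 0.01, and 7 members had an unadjusted p under 0.05, as did 2519 of all 17440 features. The called member was Ndufa10, an accessory subunit of complex I. It read -1.23, -1.44, -1.44 and -1.38 at 84 h and -1.0, -0.60, -0.82 and -0.85 at 95 h. The groups did not overlap, and the difference was 0.55 ± 0.14 (adjusted p = 0.0466, limma; 0.0195 without the 3 arrays). The call was lost without any one of Flk1- 84 h arrays 1 to 4 or Flk1- 95 h arrays 2 to 4, where 0 members were called. In Flk1+ cells Ndufa10 read -1.38, -1.84, -1.47 and -2.04 at 84 h and -1.19, -0.74, -1.10 and -0.94 at 95 h. All 95 h arrays were again the higher ones, with 0.69 with all arrays (adjusted p = 0.00405, limma) and 0.44 without the 3 (adjusted p = 0.0808, limma).

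From 95 h to 8 d the members split. In Flk1+ cells 10 rose (12.7% of all features were called higher) and 8 fell (9.61%), with a median of 0.00 against -0.02 for all features. In Flk1- cells 3 rose (9.89%) and 4 fell (7.88%), with a median of -0.02 against -0.03. The shares of members called in Flk1- cells were below those of all features, and in Flk1+ cells they were near them. None of these groups holds the 3 arrays that stood apart, but those arrays enter the shared estimate of the spread. Without them 14 members rose and 15 fell in Flk1+ cells, where 3039 and 2879 of all 17440 features did. In Flk1- cells 8 members rose and 14 fell without them, where 2545 and 2547 of all features did. The members called include all 18 in Flk1+ cells and all 7 in Flk1- cells that were called before. The split depended on scaling: with quantile normalization 10 rose (13.1%) and 22 fell (15.9%) in Flk1+ cells, 2 rose (12.5%) and 20 fell (14.1%) in Flk1- cells, and the medians were -0.29 and -0.23. Leaving out 1 array, 5 fell in Flk1+ cells without 8 d array 2 or 3 or 95 h array 1 or 4, and in Flk1- cells 7 rose and 2 fell without 95 h array 3 and 2 fell without 95 h array 4. Of the called members, 10 of 18 in Flk1+ cells and 2 of 7 in Flk1- cells were called in all 15 alternative fits.

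**Figure D4:**
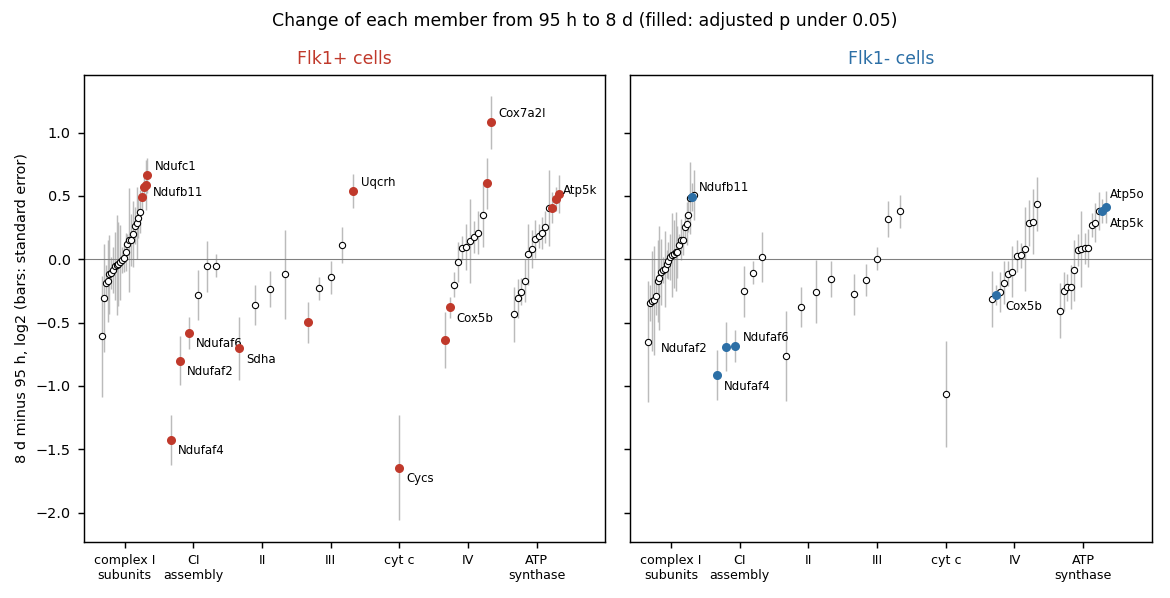
Difference 8 d minus 95 h (log2, vertical axis) of each of the 68 members by role, in Flk1+ cells (left) and Flk1- cells (right), with bars of 1 standard error and filled points for adjusted p under 0.05. Cycs (-1.64) and the assembly factor Ndufaf4 (-1.43) lie lowest among the filled points on the left, and Cox7a2l (1.08) lies highest.

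The counts by role in complex I are a description, and the roles were not tested against each other. Of the 6 assembly factors 3 fell (9.61% of all features did) in Flk1+ cells and the same 3 fell in Flk1- cells. Of the 26 subunits 4 rose in Flk1+ cells, near the 12.7% of all features, 1 rose in Flk1- cells and 0 fell in either. In each sort 5 subunits had an unadjusted p under 0.05, as did 5956 and 5272 of all 17440 features. In Flk1+ and Flk1- cells 1 and 3 subunits fell without the 3 arrays, where 2879 and 2547 of all 17440 features did. With quantile normalization 5 and 3 fell, against 15.9% and 14.1% of all features. Ndufaf4, which also binds early intermediates of complex I, read 0.83, 0.62, 0.68 and 0.62 at 95 h and -0.63, -0.95, -0.57 and -0.81 at 8 d in Flk1+ cells. In Flk1- cells it read 0.06, 0.55, 0.34 and 0.49 at 95 h and -0.38, -0.83, -0.41 and -0.61 at 8 d. All 8 d arrays were below 0 and all 95 h arrays above it. The fall was -1.43 ± 0.20 in Flk1+ cells (2.69-fold, adjusted p = 1.57e-05) and -0.91 ± 0.20 in Flk1- cells (1.89-fold, adjusted p = 0.00213, limma). Both of its probes fell, by -1.68 and -1.17 in Flk1+ cells and -1.12 and -0.71 in Flk1- cells.

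Ndufaf6 went from 0.87, 0.55, 0.84 and 0.53 to 0.13, 0.17, 0.06 and 0.12 in Flk1+ cells, and from 0.68, 0.95, 1.11 and 1.04 to 0.37, 0.27, -0.01 and 0.40 in Flk1- cells. The times did not overlap in either sort, and the falls were -0.58 ± 0.13 (adjusted p = 0.00177) and -0.69 ± 0.13 (adjusted p = 0.000431, limma). Ndufaf2, an assembly factor paralogous to subunit Ndufa12, went from 0.98, 0.84, 1.32 and 1.13 to 0.36, 0.12, 0.20 and 0.39 in Flk1+ cells, and from 0.51, 0.91, 1.23 and 1.31 to 0.19, 0.27, 0.36 and 0.37 in Flk1- cells. Again every 8 d array was below every 95 h array of its sort, and the falls were -0.80 ± 0.19 and -0.69 ± 0.19 (adjusted p = 0.00477 and 0.0159, limma). The Flk1- call of Ndufaf2 was lost with quantile normalization (-0.54, adjusted p = 0.0527, limma) and without 95 h array 3 or 4.

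Among complex I subunits, Ndufb11, an X-linked accessory subunit of the membrane arm, rose in both sorts. In Flk1+ cells it read -0.58, -0.94, -0.97 and -1.0 at 95 h and -0.36, -0.29, -0.36 and -0.20 at 8 d, and in Flk1- cells -0.83, -1.06, -0.88 and -0.92 and then -0.43, -0.44, -0.45 and -0.39. The 8 d arrays were the higher ones throughout, by 0.57 ± 0.11 and 0.49 ± 0.11 (adjusted p = 0.000662 and 0.00288, limma). With quantile normalization the rises were 0.31 (adjusted p = 0.0413) and 0.28 (adjusted p = 0.068, limma), so that the Flk1- call was lost. Ndufc1 (0.66), Ndufv3 (0.59) and Ndufb3 (0.49) rose in Flk1+ cells. The call of Ndufv3 was lost without any one array other than 95 h array 3 (adjusted p up to 0.112, limma). Ndufc1 read -0.72, -0.36, -0.56 and -0.41 at 95 h and 0.21, 0.44, 0.29 and -0.33 at 8 d. Only array 4 of 8 d stayed near the 95 h values, although the groups did not overlap (adjusted p = 0.00119, limma). In Flk1- cells its difference was 0.35 (adjusted p = 0.0823, limma).

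Of the 4 complex II genes, Sdha, the flavoprotein that oxidises succinate, fell in Flk1+ cells from -0.99, -1.21, -0.69 and -1.08 to -1.64, -1.82, -1.89 and -1.42. The times did not overlap, and the fall was -0.70 ± 0.25 (adjusted p = 0.0469, limma). The call was lost without any one array other than 8 d array 4 or 95 h array 2 (adjusted p up to 0.126), and the fall was -1.16 with quantile normalization. In Flk1- cells it went from -1.21, -1.19, -0.85 and -1.07 to -1.24, -1.35, -1.39 and -1.37, a difference of -0.26 (adjusted p = 0.541, limma). The other complex II genes were not called in either sort: Sdhb differed by -0.24 and -0.16, Sdhc by -0.36 and -0.38 and Sdhd by -0.12 and -0.76 in Flk1+ and Flk1- cells. Without the 3 arrays Sdhc was called in both sorts (adjusted p = 0.0102 and 0.00918), Sdhb in Flk1+ cells (0.0429) and Sdhd in Flk1- cells (0.00252, limma). With quantile normalization 3 of the 4 fell in Flk1+ cells and 4 of 4 in Flk1- cells, where 15.9% and 14.1% of all features did.

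In complex III, Uqcrh, the hinge protein that docks cytochrome c, rose and Uqcrc1, a core protein, fell in Flk1+ cells. Uqcrh went from -0.56, -0.81, -0.35 and -0.58 to -0.03, 0.07, -0.28 and 0.09. The times did not overlap, and the rise was 0.54 ± 0.13 (adjusted p = 0.00484, limma). Uqcrc1 went from -0.12, -0.52, 0.08 and 0.04 to -0.55, -0.74, -0.66 and -0.56, with array 2 of 95 h close to the 8 d arrays, by -0.50 ± 0.16 (adjusted p = 0.0312, limma). The call of Uqcrc1 was lost without 8 d array 2 or 3 or 95 h array 1, 3 or 4 (adjusted p up to 0.0928), and the fall was -0.80 with quantile normalization. Cyc1, cytochrome c1, was not called and differed by -0.14 in Flk1+ cells and -0.16 in Flk1- cells.

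Cycs, the somatic cytochrome c, had the largest change of all members from 95 h to 8 d. In Flk1+ cells it read -0.76, -0.25, -0.65 and -0.22 at 95 h and -2.06, -2.22, -2.05 and -2.12 at 8 d. The arrays of the 2 times were far apart and those of 8 d lay close together, with a fall of -1.64 ± 0.42 (3.13-fold, adjusted p = 0.0064, limma) that was called in all 15 alternative fits. In Flk1- cells it read -0.93, -0.58, -0.97 and -0.76 at 95 h and -1.74, -2.26, -1.66 and -1.84 at 8 d. Here too the times did not overlap, but the difference of -1.06 ± 0.42 was not called with all arrays (adjusted p = 0.0824, limma) and was called without the 3 (adjusted p = 1.43e-05, limma). The standard error of Cycs rests partly on its spread at 84 h, where it ranged from -2.92 to -0.40.

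**Figure D5:**
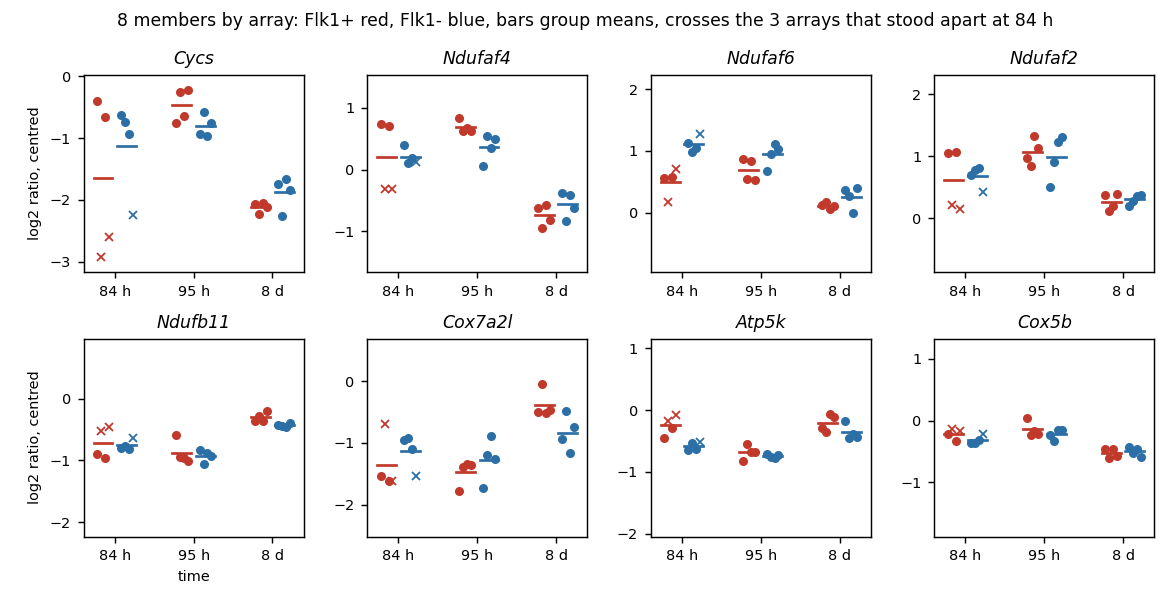
Log2 ratio, centred (vertical axis), of 8 members on every array by time, Flk1+ red and Flk1- blue, with bars at group means and crosses for the 3 arrays that stood apart at 84 h. Cycs lies near -2 in both sorts at 8 d, Ndufaf4 and Ndufaf6 drop in both sorts, and Ndufb11 and Atp5k lie higher at 8 d than at 95 h.

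In complex IV, Cox7a2l and Cox7a2 rose and Cox5a and Cox5b fell in Flk1+ cells. Cox7a2l, which joins complexes III and IV into supercomplexes, went from -1.78, -1.38, -1.35 and -1.36 to -0.50, -0.05, -0.52 and -0.47. Every 8 d array was higher than every 95 h array, and the rise was 1.08 ± 0.21 (2.11-fold, adjusted p = 0.000736, limma). In Flk1- cells it went from -1.74, -1.19, -0.89 and -1.27 to -0.94, -0.49, -1.17 and -0.74, overlapping, by 0.44 ± 0.21 (adjusted p = 0.166, limma). Whether the sorts changed differently was tested as the interaction given above, which called 0 members, or 1 (Atp5j) with array weights.

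Cox5b, which binds zinc on the matrix side, fell in both sorts, from 0.05, -0.24, -0.17 and -0.21 to -0.46, -0.60, -0.46 and -0.57 in Flk1+ cells and from -0.23, -0.33, -0.15 and -0.15 to -0.42, -0.52, -0.46 and -0.59 in Flk1- cells. The changes were -0.38 ± 0.08 and -0.28 ± 0.08 (adjusted p = 0.00177 and 0.0186, limma), small but with no overlap of the times. They were -0.65 and -0.49 with quantile normalization, and the Flk1- call was lost without 8 d array 4 or 95 h array 3 or 4 and with only the arrays compared (adjusted p up to 0.0721). Cox5a fell in Flk1+ cells (-0.64 ± 0.22, adjusted p = 0.0422, limma), and both of its probes were lower, by -0.51 and -0.77. Its call was lost without any one array other than 95 h array 3 (adjusted p up to 0.112), and the fall was -1.07 with quantile normalization. Cox7a2, the general form of subunit VIIa, rose by 0.60 ± 0.20 in Flk1+ cells (adjusted p = 0.0349, limma), from -0.59, -0.47, -0.82 and -0.55 to 0.08, 0.09, 0.16 and -0.36. Its call was lost with the values as deposited and without any one array other than 8 d array 4 or 95 h array 2 (adjusted p up to 0.0959).

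The other complex IV subunits with tissue forms, Cox6a and Cox6b, were not called from 95 h to 8 d with all arrays. Cox6a1, the general form, differed by 0.09 and 0.03 from 95 h to 8 d in Flk1+ and Flk1- cells, and Cox6a2, the form of heart and skeletal muscle, by -0.20 and -0.11. Cox6b1 differed by 0.35 and 0.30 and Cox6b2, the testis form, by 0.10 and 0.29. Cox6b1 was called in Flk1+ cells without the 3 arrays (adjusted p = 0.0246, limma). With quantile normalization Cox6a2 was called lower in both sorts (-0.47 and -0.29), Cox6a1 lower in Flk1+ cells (-0.28) and Cox6b2 higher in Flk1- cells (0.48). Cox4i1 (0.15 and 0.08), Cox7b (0.21 and -0.19) and Cox8a (0.18 and 0.02) were not called either. Cox4i2, Cox7a1, Cox7b2, Cox8b, Cox8c, Ndufa4 and Ndufa4l2 were not analysed here. Of the heart muscle markers 12 of 14 were measured, and their mean per array lay between -2.22 and -1.25 in all groups (below the pup RNA). Their part in these values was not tested.

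In ATP synthase, Atp5k, Atp5j (call lost without 8 d array 1 or 95 h array 1 or 3) and Atp5mpl (lost without 8 d array 2 or 3 or 95 h array 3, with quantile normalization and with only the arrays compared) rose in Flk1+ cells and Atp5k and Atp5o in Flk1- cells, with 0 of 14 called lower in either. Without the 3 arrays 3 fell in each sort, where 2879 and 2547 of all 17440 features did in Flk1+ and Flk1- cells. With quantile normalization 3 fell in each sort too, against 15.9% and 14.1% of all features. Atp5k, subunit e, which helps the enzyme form dimers, went from -0.82, -0.55, -0.67 and -0.68 to -0.29, -0.35, -0.07 and -0.11 in Flk1+ cells and from -0.71, -0.76, -0.77 and -0.72 to -0.18, -0.45, -0.38 and -0.43 in Flk1- cells. The times did not overlap in either sort, and the rises were 0.48 ± 0.10 and 0.38 ± 0.10 (adjusted p = 0.000939 and 0.00672, limma). With quantile normalization neither was called, at 0.27 (adjusted p = 0.0705) and 0.19 (adjusted p = 0.222, limma). Atp5o, part of the stalk, rose in Flk1- cells by 0.41 ± 0.13 (adjusted p = 0.0269, limma), from -0.97, -1.20, -0.84 and -0.78 to -0.53, -0.59, -0.44 and -0.59. Its call was lost with quantile normalization (0.17, adjusted p = 0.293, limma) and without 8 d array 1 or 3 or 95 h array 1 or 2.

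Other mitochondrial and energy genes were followed as lists. From 95 h to 8 d in Flk1+ cells the tricarboxylic acid cycle and pyruvate dehydrogenase list (20 of 27 measured) had 2 called higher and 5 lower, where 12.7% and 9.61% of all features were called higher and lower. Among these were Pdk1 (1.75), the kinase that switches pyruvate dehydrogenase off, Idh3a (-0.99), a cycle enzyme, and Pdha1 (-0.87), a subunit of the dehydrogenase. Carriers and import (27 of 36) had 4 higher, among them Vdac1 (0.85), and 9 lower, among them the ADP/ATP carrier Slc25a5 (-1.29) and the import chaperone Timm10 (-1.03). Other assembly factors (12 of 35) had 1 higher, Surf1 (0.99), and 3 lower. Regulators of mitochondrial biogenesis (15 of 19) had 1 higher, Tfb1m (0.62), and 3 lower. The lower ones were the coactivator Pprc1 (-1.13), Myc (-0.65) and Tfam (-0.35), which packages mitochondrial DNA. Fatty acid oxidation (11 of 16) had 2 higher and 2 lower, and glycolysis (16 of 22) 4 higher, including Hk1 (1.21), and 3 lower, including Ldha (-0.86).

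In Flk1- cells these lists had 1 higher and 1 lower, 2 and 6, 1 and 0, 1 and 1, 1 and 1, and 2 and 1, in the same order, where 9.89% and 7.88% of all features were called. Slc25a5 (-1.03), Timm10 (-0.67) and Pprc1 (-0.85) were among the lower ones there, and Vdac1 (0.87), Surf1 (0.69) and Tfb1m (0.35) among the higher ones. Mitochondrial ribosomal protein genes, 55 in number, had 1 higher and 8 lower in Flk1+ cells (median -0.25) and 0 and 5 in Flk1- cells (median -0.17), so that their medians lay below those of the respiratory chain members. No test of that difference was made. Their counts without the 3 arrays were 4 and 23 in Flk1+ cells, where 3039 and 2879 of all 17440 features were called. In Flk1- cells they were 4 and 16, where 2545 and 2547 of all features were called.

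At 84 h, of glycolysis genes 5 were lower in Flk1+ than in Flk1- cells and 0 higher, among them Hk2 (-1.22), Pgk1 (-0.94) and Ldha (-0.80), where 8.12% of all features were lower and 5.36% higher. Of glycolysis genes 4 were lower without the 3 arrays and 0 higher, against 4.79% and 1.92%. Carriers had 4 lower, fatty acid oxidation 3, regulators 2, other assembly factors 1 and the cycle list 1, with Pdk2 (0.29) alone higher. Carriers and other assembly factors had 0 called without the 3 arrays, fatty acid oxidation and the cycle list had 1 lower each, and regulators had 1 higher. Pdk1 was lower in Flk1+ cells at 84 h (-1.54) and at 95 h (-1.33), where it was the only gene of these 6 lists called. Its sort difference changed by 1.58 ± 0.26 from 95 h to 8 d (adjusted p = 0.0034, limma). The cytosolic ribosomal protein genes had 19 of 52 lower and 0 higher at 84 h (median -0.41), and the mitochondrial ones 11 lower and 1 higher of 55 (median -0.28), beside the members' 13 and 1 of 68 (median -0.38). The counts without the 3 arrays were 3 lower and 0 higher in each of these 3 lists, with medians of -0.16, -0.07 and -0.04.

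Markers of other cells moved with these comparisons. The 6 measured pluripotency genes of 8 (Nanog, Sox2, Zfp42, Tdgf1, Utf1 and Fgf4) averaged 0.83 to 1.49 per array in Flk1+ cells of 84 h and 2.12 to 2.16 in Flk1- cells. At 8 d they were at -0.06 to 0.07 and 0.31 to 0.55. The 7 measured endothelial genes of 9 include Kdr, the gene of the sort, so the sorting itself set part of their difference between the sorts. They averaged -0.83 to -0.61 in Flk1+ cells of 95 h and -0.29 to 0.14 at 8 d. In Flk1- cells they stayed between -1.19 and -0.84 at all times. At 95 h Kdr alone averaged 1.85 in Flk1+ and -1.08 in Flk1- cells, and 6 of the 7 genes lay below 0 in each sort. The part of these markers in the changes of respiratory chain genes was not tested.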

How the data were processed

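The deposited matrix holds a value per probe and array, which was handled as a log2 ratio (base assumed) of sample (Cy5) over pup reference (Cy3), per the labels' dyes. The authors' log base, direction and normalization are not given in the sources used here; each deposited array has a mean of 0, and another base would multiply all differences by 1 common factor. Of 20280 probes, 11813 were annotated with 1 gene, 559 with several and 7908 with none. Probes of a gene were averaged, the rest kept singly, and each array's median over all 17440 features was set to 0. A model of 6 group means was fitted to all features with limma 3.58.1 (R 4.3.3; 18 residual and 3.40 prior degrees of freedom), with Benjamini-Hochberg adjustment over all features and a threshold of 0.05, in which called means adjusted p below it. Python 3.11.15 with pandas 2.3.3 and matplotlib 3.10.9 served for promoters and figures. The code was tested on simulated data.

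The members and gene lists, and the 3 arrays left out, were chosen with earlier results of these data known. Named were up to 8 called members per direction and comparison, largest first, fixed isoform pairs, Cycs, Cyc1, the Sdh genes and Kdr, and up to 4 called genes of each other list; other members were singled out after their values were seen. Same-numbered arrays of the sorts deviated together at 95 h (r = 0.14, 0.41, 0.42 and 0.11) and 8 d (0.29, 0.36, 0.44 and 0.15), so the numbers pair them there, by the data and not the labels. The rule was r over 0.1 in every pair, which 1 of the 4 pairs of 84 h did not meet. Alternatives were the values as deposited, quantile normalization, array weights, only the arrays compared, another probe rule, leaving arrays out and the replicate block. Scanner intensities were not used here, so background correction and a filter on dim probes could not be varied, and the number of arrays limits the precision.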

Additional observations from a re-analysis of the deposited data

Results flagged for a closer look

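In 15 of 222 groups of 4 arrays, 1 array lay far from the other 3 (a gap to the nearest beyond the 95% critical value of Dixon's test), where chance gives about 1 in 20 groups, or 11.1. These groups do not cover all 68 members. The test looks for 1 array apart and cannot flag 2 arrays that lie low together. Ndufa12 on Flk1+ 84 h arrays 2 and 4 (-2.62 and -2.57, others 0.33 and 0.27) is such a case. At 84 h, Flk1- array 4 was low for Ndufa12 (-0.56, others 0.46 to 0.50), Sdhb (-0.87, others -0.49 to -0.42), Sdhd (-2.15, others -1.34 to -1.28) and Cox7b (-1.08, others -0.42 to -0.29). In Flk1+ cells of 84 h, array 2 was high for Cox7a2l (-0.69, others -1.62 to -1.54).

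At 95 h, Flk1+ array 1 was high for Ndufb11 (-0.58, others -1.0 to -0.94) and low for Cox7a2l (-1.78, others -1.38 to -1.35), and Flk1- array 1 was low for Kdr (-1.30, others -1.02 to -1.0). At 8 d, Flk1+ array 4 was low for Cox7a2 (-0.36, others 0.08 to 0.16) and high for Kdr (1.88, others 1.46 to 1.51), and Flk1+ array 2 was high for Cox7a2l (-0.051, others -0.52 to -0.47). In Flk1- cells of 8 d, array 2 was low for Ndufa12 (-0.51, others -0.27 to -0.26), array 3 low for Sdhd (-2.08, others -1.41 to -1.37), and array 4 low for Cox6a2 (-0.46, others -0.35 to -0.33) and high for Ndufaf3 (-0.10, others -0.19 to -0.18).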

How the results depend on the processing

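Of 990 alternative values of called genes, 666 kept the call and 324 lost it, with 0 reversed. Medians near 0 changed sign, as with quantile normalization for Flk1+ cells from 95 h to 8 d (0.00 to -0.29) and the sorts at 8 d (0.05 to -0.03) and with array weights for the sorts at 95 h (0.013 to -0.0094). Of 151 alternative medians 16 moved by more than the spread between arrays. The cause was not tested. At 84 h (1 higher, 13 lower) the higher count was 2 with the values as deposited, 4 with quantile normalization, 0 without the 3 arrays and 0 with only the arrays compared; the lower count was 4 with quantile normalization, 3 without the 3 arrays, 4 with array weights and 0 with only the arrays compared. The replicate block gave 2 higher and 30 lower at 84 h, where 1842 and 2536 of all 17440 features were. Same-numbered arrays of 84 h correlated at 0.34, -0.13, 0.31 and 0.53, short of the pairing rule in 1 pair, and 2 of 4 matched their own number best. The block left the sort counts of 95 h and 8 d at 0. At 8 d array weights gave 8 higher and 3 lower and only the arrays compared 2 and 1. For Flk1+ cells from 84 h to 95 h (21 and 5), 7 were higher with quantile normalization, and 0 were higher and 0 lower without the 3 arrays, with array weights and with only the arrays compared. For Flk1- cells (1 higher) the count was 0 as deposited, 4 with array weights and 0 with only the arrays compared. From 95 h to 8 d the lower count in Flk1+ cells (8) was 22 with quantile normalization, 15 without the 3 arrays and 13 with array weights. In Flk1- cells (3 and 4) the higher count was 8, 8 and 5 without the 3 arrays, with array weights and with only the arrays compared, and the lower count 14, 15 and 7, and 20 with quantile normalization. The change of the sort difference from 95 h to 8 d was called for 1 member with array weights.

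Leaving out each array in turn gave 0 to 3 higher and 2 to 33 lower at 84 h, 6 to 35 higher and 1 to 7 lower for Flk1+ cells from 84 h to 95 h, and 0 to 1 higher for Flk1- cells. From 95 h to 8 d it gave 7 to 9 higher and 5 to 7 lower in Flk1+ cells and 2 to 7 higher and 2 to 4 lower in Flk1- cells. Signal over background was not analysed here, so which low values are near background is unknown.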

Other observations

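At 95 h, array 2 of both sorts was low for 5 complex I subunits, chosen after their values were seen. Ndufv2 read -2.13 on Flk1+ array 2 and -2.06 on Flk1- array 2, against -1.21 to -0.29 on the other 95 h arrays. Ndufs5 and Ndufs3 each read -1.75 and -1.99 there. Ndufb7 read -1.27 and -1.07, and Ndufa13 -1.20 and -1.47.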
